A study of Mus musculus with 6 samples.

Results

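The genes described here are 43 genes known to be induced by type I interferon, taken by symbol from a given list that leaves out the guanylate-binding proteins, out of 39179 genes counted in each library. All 43 symbols matched a gene in the counts. They were measured in mouse Th17 cells that had been grown with or without desIgf1, a shortened form of the growth factor IGF-1 with weak affinity for the binding proteins that hold IGF-1 in check. The design gave 3 desIgf1 libraries, with the agent at 30 ng/mL, and 3 control libraries without it. In both groups, naive CD4+ T cells from spleens of C57BL/6 mice were activated with anti-CD3 in solution (5 µg/mL) and irradiated splenocytes without CD4+ cells. The medium held TGF-β (2.5 ng/mL) and IL-6 (20 ng/mL) to drive Th17 differentiation, and antibodies that block IFN-γ and IL-4 (10 µg/mL of either), and cells were taken on day 5. The mice of both groups carried 3 reporters, human CD2 for Il17a, Thy1.1 for Ifng and GFP for Foxp3, and the sorted cells held the first and lacked the other two. One protocol text, shared by the 6 samples, names desIgf1 for the controls too, whereas titles and series design set the groups apart, and the titles were followed. Whether each library had its own culture or animal is not in the labels, and the p-values therefore reflect the spread among these libraries, which may be technical.

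Type I interferons bind the IFNAR1 and IFNAR2 receptor chains and activate the kinases JAK1 and TYK2. Their activity leads to the assembly of the ISGF3 complex, which holds STAT2 and IRF9 and binds interferon-stimulated response elements in promoters. The genes it switches on encode sensors of foreign nucleic acid, antiviral effectors, parts of the antigen-processing machinery and regulators that feed back on the pathway. Interferon-γ acts at gamma-activated sites, and IRF1, the immunoproteasome subunits and TAP1 respond to it strongly. An antibody against it was present in both groups.

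The response element is what ISGF3 reads, so the promoters of members are shown with their matches to its core, GAAANNGAAA on either strand. RefSeq windows (GRCm38.p6) of 250 bases before and 50 bases from the annotated start were at hand for 35 of the 43 members, in 44 windows. The core was in a window of 15 of these 35 members (42.9%), against 3.99% of all 27025 genes with a window. The shorter core of the gamma-activated site, TTCNNNGAA, which reads the same on both strands, was in a window of 9 members (25.7%), against 9.55% of all genes. In Bst2 the cores share bases, since the gamma-activated match ran from base -136 to -128 and a response element match from -130 to -121. A match is a description of the letters. The 6 windows below are those of Isg15 and Ifit1, the textbook interferon-induced genes, and of the 4 other members with a match that had the smallest unadjusted p-values with desIgf1. Capitals mark the matched core.
Isg15: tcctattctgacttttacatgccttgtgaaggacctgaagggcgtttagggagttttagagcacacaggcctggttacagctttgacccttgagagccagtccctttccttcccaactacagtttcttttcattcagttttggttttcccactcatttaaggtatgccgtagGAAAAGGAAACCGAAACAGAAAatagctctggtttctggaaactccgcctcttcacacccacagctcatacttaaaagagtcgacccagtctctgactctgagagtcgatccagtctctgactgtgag
Ifit1: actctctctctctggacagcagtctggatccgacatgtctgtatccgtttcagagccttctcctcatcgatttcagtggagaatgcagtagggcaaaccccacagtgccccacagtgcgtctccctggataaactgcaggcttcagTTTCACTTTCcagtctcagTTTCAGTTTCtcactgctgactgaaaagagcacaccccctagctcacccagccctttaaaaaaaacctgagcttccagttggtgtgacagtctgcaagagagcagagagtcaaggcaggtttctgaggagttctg
Slfn8: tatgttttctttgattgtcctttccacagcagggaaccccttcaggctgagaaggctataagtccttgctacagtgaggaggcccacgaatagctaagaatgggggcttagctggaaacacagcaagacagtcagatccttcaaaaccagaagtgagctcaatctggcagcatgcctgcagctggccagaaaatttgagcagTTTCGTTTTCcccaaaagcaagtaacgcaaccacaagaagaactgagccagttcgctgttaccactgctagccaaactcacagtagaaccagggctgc
Ifih1: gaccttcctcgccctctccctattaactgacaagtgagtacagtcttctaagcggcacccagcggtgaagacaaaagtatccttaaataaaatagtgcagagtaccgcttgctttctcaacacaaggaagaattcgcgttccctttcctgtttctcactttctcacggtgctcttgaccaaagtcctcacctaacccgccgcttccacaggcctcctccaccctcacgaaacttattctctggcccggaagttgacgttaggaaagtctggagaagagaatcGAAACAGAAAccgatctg
Slfn5: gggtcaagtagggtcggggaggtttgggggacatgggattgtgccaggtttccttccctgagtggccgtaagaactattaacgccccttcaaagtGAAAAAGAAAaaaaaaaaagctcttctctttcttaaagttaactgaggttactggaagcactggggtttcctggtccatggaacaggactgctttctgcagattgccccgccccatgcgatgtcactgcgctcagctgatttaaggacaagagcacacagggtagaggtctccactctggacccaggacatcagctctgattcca
Eif2ak2: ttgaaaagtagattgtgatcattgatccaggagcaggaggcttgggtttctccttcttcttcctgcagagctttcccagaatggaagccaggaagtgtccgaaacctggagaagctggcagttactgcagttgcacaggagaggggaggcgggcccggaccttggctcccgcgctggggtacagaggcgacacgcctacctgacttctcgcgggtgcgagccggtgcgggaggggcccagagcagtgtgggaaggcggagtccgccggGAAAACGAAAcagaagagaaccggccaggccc
The windows lie at chr4:156200769-156201068 (Isg15, minus strand), chr19:34640639-34640938 (Ifit1, plus strand), chr11:83020761-83021060 (Slfn8, minus strand), chr2:62646206-62646505 (Ifih1, minus strand), chr11:82951852-82952151 (Slfn5, plus strand) and chr17:78882523-78882822 (Eif2ak2, minus strand), each written 5′ to 3′ on the strand of its gene. Isg15 held 3 overlapping matches in 1 run of capitals, from base -78 to -57. Ifit1 held 2 separate matches from base -104 to -76, both on the other strand, so the core is printed as its reverse complement. Slfn8 had its match at base -48 on the other strand and Slfn5 at base -155. In Ifih1 and Eif2ak2 the match began after the start, at bases 33 and 19.

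**Figure D1:**
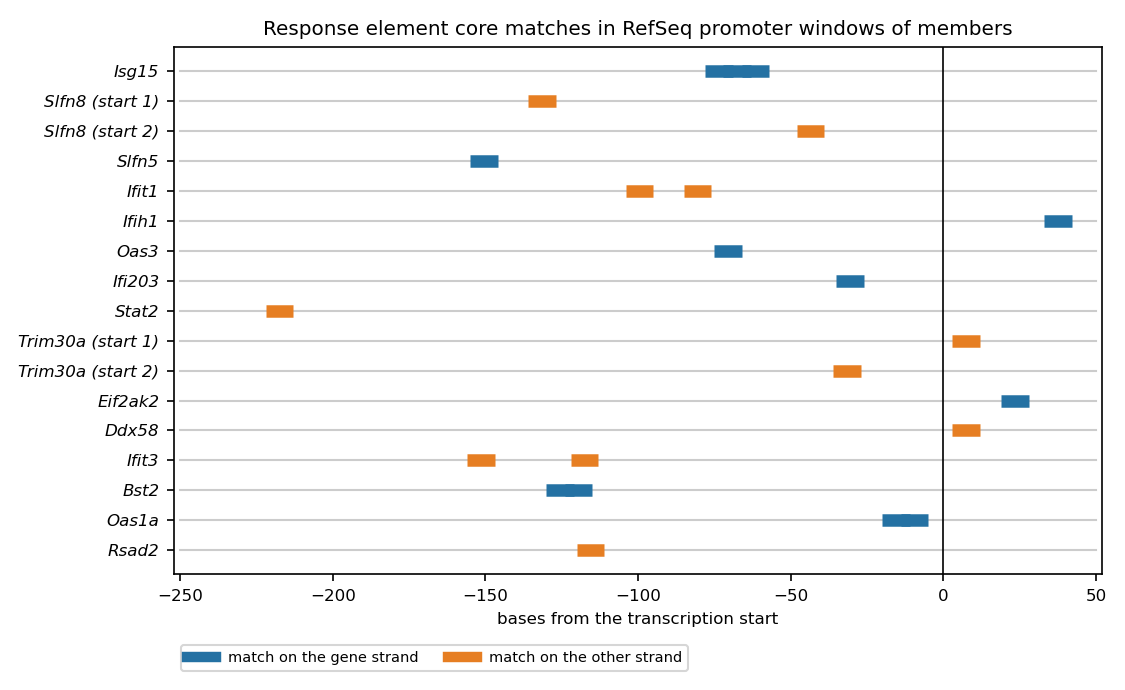
Matches to the response element core in the promoter windows of the 15 members that hold one, by distance in bases from the annotated transcription start (horizontal axis), 1 line per window. Blue bars are matches on the strand of the gene and orange bars those on the other strand, and Isg15, Bst2 and Oas1a show runs of overlapping matches.

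Gene counts summed to 34567899 to 47929948 per library. Both groups carry the replicate numbers 1 to 3 in their titles, and same-numbered libraries deviated together from their group means, so each gene is also compared within numbers. Both number 3 libraries stood apart over the whole table: 15% of the 13846 tested genes had both of them above the other 4 libraries and 12.5% had both below. Of the tested members 2 lay above in this way and 5 below. Levels are counts scaled to the library's size with TMM factors (CPM), and differences are log2 fold changes of desIgf1 over control with their standard errors (SE).

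The members spanned a wide range of levels, from genes that were among the strongly expressed in these cells to genes that were almost silent. Per kilobase of exon, over all 6 libraries, Slfn2 was highest at 229 CPM per kb (222 in desIgf1 libraries and 236 in controls on average), followed by Psmb8 at 110 and Samhd1 at 61.0 CPM per kb. The next were Slfn1 (56.9), Psmb10 (42.7), Tap1 (40.4), Sp100 (32.8) and Bst2 (29.6). Slfn2 keeps T cells quiescent, Psmb8 and Psmb10 are immunoproteasome subunits, and Samhd1 degrades deoxynucleotides. Several genes that usually report an interferon response stood toward the other end of the order. Among them were Isg15 at 2.11, Ifit1 at 0.270, Usp18 at 0.248, Rsad2 at 0.0381 and Oasl2 at 0.0218 CPM per kb. Others stood between, with Irf9 at 13.7, Ifit2 at 5.53, Irf7 at 3.90 and Mx1 at 2.71 CPM per kb. In the order of the 43 levels, 38 of the 42 neighbouring pairs had library ranges that overlapped. The 4 steps that did not overlap lay below Slfn2, below Psmb8, below Bst2 and below Oas3.

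**Figure D2:**
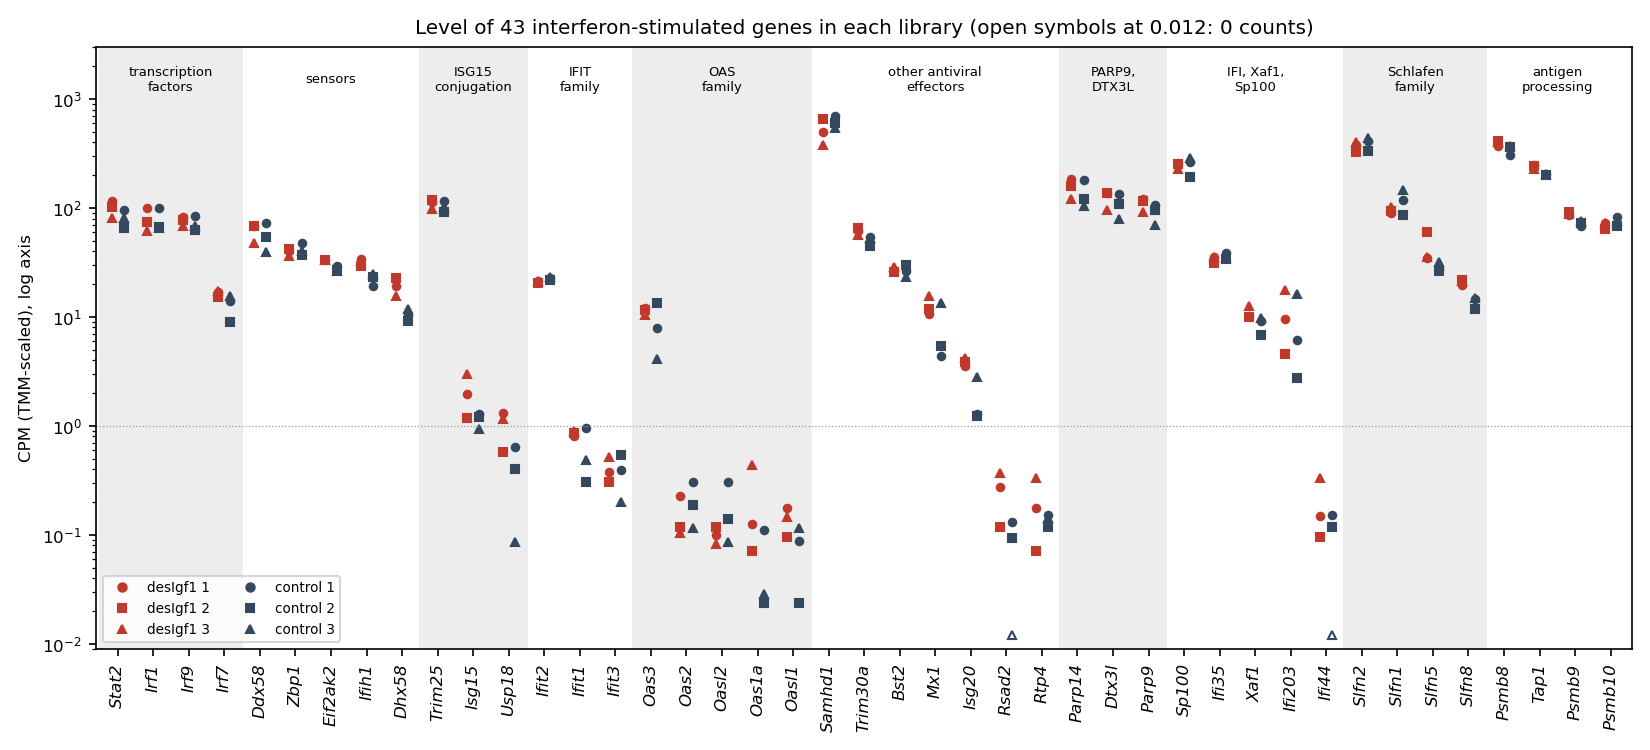
TMM-scaled CPM (vertical log axis) of the 43 members in every library, grouped by role, with desIgf1 libraries in red to the left of controls in dark blue. Circles, squares and triangles are replicate numbers 1, 2 and 3, and open symbols mark 0 counts, which Rsad2 and Ifi44 show in control 3.

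Of the 43 members, 36 passed the filter on low counts and were tested, and 7 (Ifi44, Oas1a, Oas2, Oasl1, Oasl2, Rsad2 and Rtp4) were too low. The 7 had 0 to 21 counts per library. Their summed level was 1.23, 0.689 and 1.80 CPM in desIgf1 libraries 1 to 3, against 1.25, 0.704 and 0.487 CPM in controls 1 to 3, so the groups overlapped. Ifit3 and Usp18 passed the filter with all 3 libraries only in the desIgf1 group, and with 2 of 3 in controls. The counts and medians below describe the 36 that passed and are not support for a shift of all members.

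With desIgf1, members were more often higher than lower, by small steps, and none passed the test over all genes. In edgeR's quasi-likelihood test 0 of 36 members had an adjusted p under 0.05, as for all tested genes (0% of 13846), and the smallest adjusted p was 0.322, for Dhx58. At an unadjusted p under 0.05, 9 members were higher and 0 lower with desIgf1, against 4.75% of all genes higher and 3.42% lower. limma voom also called 0 members, and edgeR with a block for the replicate number called 0 members (0.318% of all genes), with 12 members higher and 0 lower at an unadjusted p under 0.05 (9.02% and 5.29% of all genes). Without the filter on low counts edgeR called 0 members (0.0711% of 22504 genes). DESeq2 called 2 members higher, Dhx58 (adjusted p = 0.00345) and Slfn8 (adjusted p = 0.0166), against 0.796% of 14193 genes higher, 0.669% lower and 1.47% in either direction. In bulk samples fewer cells of a type and less RNA per cell cannot be told apart.

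The log2 fold changes of the 36 ran from -0.28 (Slfn1) to 1.40 (Usp18), with a median of 0.25, against -0.00524 over all tested genes. There were 28 members above 0 (77.8%) and 8 below, whereas 49.1% of all genes lay above 0. At least 1.5-fold higher were 7 members, against 6.41% of all genes, and 0 members were at least 1.5-fold lower, against 4.68%. The median difference within replicate numbers was 0.16, 0.34 and 0.18 on the log2 scale for numbers 1, 2 and 3, with 22, 28 and 26 members higher with desIgf1. In all 3 numbers 19 members were higher (52.8%; 20.9% of all genes) and 3 were lower (17.2% of all genes). All 3 desIgf1 libraries lay above all 3 controls for 11 members (30.6%; 7.31% of all genes), and below them for 1 member (6.18% of all genes), while the groups overlapped for 24.

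**Figure D3:**
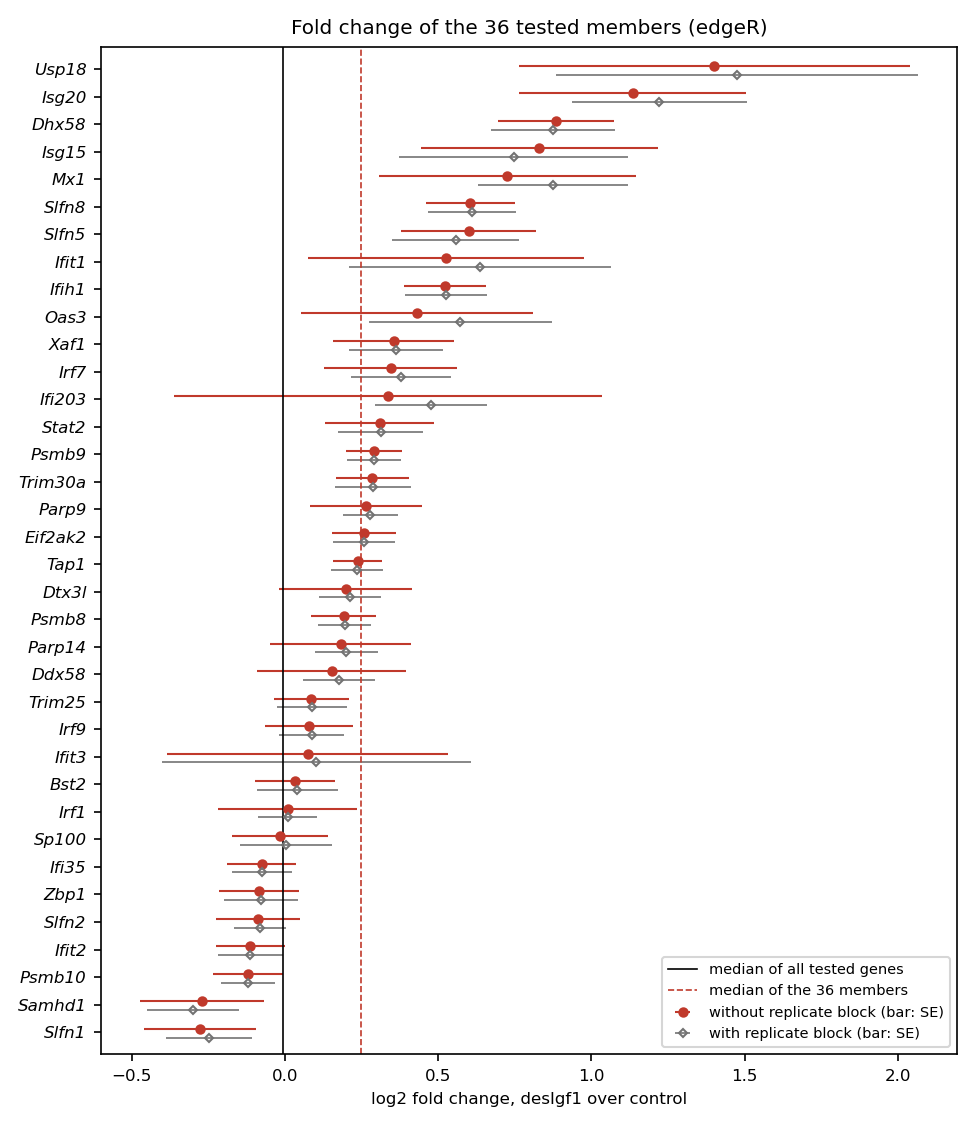
Log2 fold change of desIgf1 over control (horizontal axis) for the 36 tested members, without the replicate block (red circles) and with it (grey diamonds), with SE bars. The dashed line is the members' median of 0.25 and the solid line the median of all tested genes, and 28 of the 36 red points lie above 0.

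Upstream of the members, the interferons themselves were all but absent from the counts and the receptors and kinases were well expressed. Reads placed at several sites were not counted, so interferon genes that share sequence may read low. The libraries are of sorted cells, and interferon from the splenocytes in the culture was not measured. Of 14 type I interferon genes analysed, 13 had 0 counts in every library, and Ifnz was at 0 to 0.0751 CPM in desIgf1 libraries and 0 to 0.0877 CPM in controls. Ifng, whose reporter was gated out, was at 0.0237 to 0.275 CPM in desIgf1 libraries and 0.0704 to 0.614 CPM in controls. Ifnar1, the chain that TYK2 binds, was at 174, 173 and 136 CPM with desIgf1, against 140, 108 and 139 CPM in controls (log2 0.32 ± 0.14 SE, edgeR adjusted p = 0.610). Its number 3 desIgf1 library lay inside the control range. Ifnar2 was at 47.1 to 52.4 CPM with desIgf1 and 43.2 to 54.2 CPM in controls. The kinases Jak1 (713 to 770 against 661 to 923 CPM, desIgf1 against control) and Tyk2 (123 to 140 against 117 to 157 CPM) overlapped between the groups. So did Socs1, the feedback inhibitor of JAK kinases (50.9 to 149 against 42.6 to 131 CPM).

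In the wider list of 56 pathway genes, 36 were tested and 0 passed edgeR's test with or without the block, with a median log2 fold change of 0.04. At an unadjusted p under 0.05, 3 were higher and 0 lower (4.75% and 3.42% of all genes), and with the block 7 higher and 1 lower (9.02% and 5.29%). The 3 without the block were Irf8, Jak2 and Stat4. Irf8, a transcription factor of myeloid cells and lymphocytes, was at 47.5, 55.6 and 51.7 CPM with desIgf1, against 33.1, 25.8 and 36.3 CPM in controls (log2 0.70 ± 0.15 SE, edgeR adjusted p = 0.316, DESeq2 adjusted p = 0.00645). Jak2, a kinase of the interferon-γ receptor and many cytokine receptors, was at 971, 1054 and 802 CPM with desIgf1, against 628, 610 and 678 CPM in controls (log2 0.56 ± 0.12 SE, edgeR adjusted p = 0.333, DESeq2 adjusted p = 0.0185). Both were higher in every desIgf1 library than in any control, and they were the pathway genes that DESeq2 called. Stat4 was also separated, at 170 to 236 CPM with desIgf1 and 134 to 163 CPM in controls (edgeR adjusted p = 0.526). Irf8, Jak2 and Stat4 were named for the smallest unadjusted p on the higher side, which favours separated genes. Of the 36 tested pathway genes, 4 had all desIgf1 libraries above the controls and 0 had all below. The shares of all genes were 7.31% and 6.18%. The lower pathway genes with the smallest p, Irf4, Tmem173 (the adaptor STING) and Irf2bp1, overlapped between groups and had edgeR adjusted p-values of 0.704 to 0.736. Trex1, an exonuclease whose locus is shared with Atrip, was listed at 0.

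The 4 transcription factors among the members were all tested, and the desIgf1 and control libraries overlapped for each. Stat2, the ISGF3 subunit, was at 115, 103 and 81.7 CPM with desIgf1, against 95.4, 65.0 and 81.5 CPM in controls. It was higher within each replicate number, while number 3 differed by very little (log2 0.31 ± 0.18 SE, edgeR adjusted p = 0.650). Irf7, which amplifies interferon production, was at 17.1, 15.1 and 17.2 CPM with desIgf1, against 14.1, 9.05 and 15.7 CPM in controls. Control 2 was the low library, and the log2 fold change of 0.35 ± 0.22 was 0.14 without it. Irf9, the DNA-binding subunit of ISGF3, was at 67.7 to 82.5 CPM with desIgf1 and 62.4 to 84.8 CPM in controls (log2 0.08 ± 0.14 SE). Irf1 was at 99.1, 74.5 and 61.1 CPM with desIgf1, against 100, 66.7 and 66.1 CPM in controls (log2 0.01 ± 0.23 SE, edgeR adjusted p = 0.992). For Irf1 the number 1 libraries were the high ones in both groups.

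Among the 5 sensors, the cytosolic RNA helicases Dhx58 and Ifih1 were higher in every desIgf1 library than in any control, and Ddx58 was not. Dhx58 encodes LGP2, which modulates signalling by its relatives RIG-I and MDA5 (chromosome 11, 100694884 to 100704271, minus strand, GRCm38). Its desIgf1 libraries 1 to 3 held 19.2, 22.96 and 15.6 CPM, against 10.4, 9.08 and 11.8 CPM in the same-numbered controls. The lowest desIgf1 library, number 3, was paired with the highest control (log2 0.88 ± 0.19 SE, edgeR adjusted p = 0.322, with the block 0.165). Ifih1 encodes MDA5, a sensor of long double-stranded RNA (chromosome 2, 62595798 to 62646255, minus strand). It was at 34.3, 29.6 and 32.6 CPM with desIgf1, against 19.3, 23.3 and 24.5 CPM in controls (log2 0.52 ± 0.13 SE, edgeR adjusted p = 0.406). The closest libraries of the groups were 15.6 CPM with desIgf1 and 11.8 CPM in a control for Dhx58, and 29.6 CPM with desIgf1 and 24.5 CPM in a control for Ifih1.

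Eif2ak2, the gene of the double-stranded RNA-dependent kinase PKR, was at 33.1, 33.2 and 33.1 CPM with desIgf1, against 29.6, 27.0 and 26.6 CPM in controls. The desIgf1 libraries were nearly equal and all above the controls (log2 0.26 ± 0.10 SE, edgeR adjusted p = 0.598). Ddx58, the gene of RIG-I, was at 68.7, 68.9 and 47.2 CPM with desIgf1, against 73.0, 53.7 and 39.5 CPM in controls (log2 0.15 ± 0.24 SE). Both number 3 libraries were its lowest, and the groups overlapped. Zbp1, a sensor of Z-form nucleic acid, was at 36.3 to 41.6 CPM with desIgf1 and 36.8 to 48.0 CPM in controls (log2 -0.08 ± 0.13 SE).

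Of the genes of the ISG15 system, both low ones had the larger differences and overlapping groups. Isg15, the ubiquitin-like modifier, was at 1.95, 1.19 and 2.98 CPM with desIgf1, against 1.29, 1.196 and 0.945 CPM in controls (log2 0.83 ± 0.39 SE, edgeR adjusted p = 0.625). Its number 2 libraries were nearly equal, and the log2 fold change was 0.43 without desIgf1 library 3. Usp18, the protease that removes ISG15 and blocks the receptor, was at 1.30, 0.570 and 1.16 CPM with desIgf1, against 0.636, 0.399 and 0.0859 CPM in controls. It was higher within each number, with the highest control above the lowest desIgf1 library (log2 1.40 ± 0.64 SE, edgeR adjusted p = 0.610; 2.01 without control 1), and control 3 had a level equal to 3 counts. Trim25, a ligase that acts on RIG-I and conjugates ISG15, was at 98.2 to 119 CPM with desIgf1 and 92.4 to 116 CPM in controls (log2 0.09 ± 0.12 SE).

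The IFIT genes, whose proteins bind foreign RNA, lie in a row on chromosome 19 and differed in sign. Ifit2 was the only tested member with every desIgf1 library below every control, at 21.2, 20.3 and 21.2 CPM with desIgf1 and 22.8, 21.7 and 23.2 CPM in controls. The separation was small (log2 -0.11 ± 0.11 SE, edgeR adjusted p = 0.783). Ifit1 was at 0.801, 0.855 and 0.889 CPM with desIgf1, against 0.965, 0.305 and 0.487 CPM in controls (log2 0.53 ± 0.45 SE). Control 1 was its highest library and control 2 its lowest, and the log2 fold change was 1.10 without control 1 and 0.21 without control 2. Ifit3 was at 0.309 to 0.517 CPM with desIgf1 and 0.2005 to 0.539 CPM in controls (log2 0.07 ± 0.46 SE). Ifit3 has a near-identical neighbour, Ifit3b, and Ifit1 a related one, Ifit1bl1. Reads that fit more than 1 gene are not in these counts, so the levels of Ifit1 and Ifit3 are uncertain. How many reads of Ifit1 were lost in this way was not measured.

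Of the 5 OAS family genes, some of whose products make the second messenger that activates RNase L, Oas3 alone was tested. It was at 12.1, 11.6 and 10.5 CPM with desIgf1, against 7.96, 13.3 and 4.10 CPM in controls (log2 0.43 ± 0.38 SE, edgeR adjusted p = 0.746). The desIgf1 libraries were close to each other and the controls were spread around them. Oas1a had 0.125, 0.0712 and 0.434 CPM with desIgf1 and 0.110, 0.0235 and 0.0286 CPM in controls, and was highest in desIgf1 library 3. Oas1a shares sequence with Oas1g and is uncertain for that reason too. Oas2, Oasl1 and Oasl2 together spanned 0.0827 to 0.225 CPM with desIgf1, against 0.0235 to 0.307 CPM in controls.

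Among the other antiviral effectors, Isg20 and Trim30a were separated between the groups. Isg20, an RNA exonuclease gene (chromosome 7, 78913424 to 78920396, plus strand), had 3.58, 3.85 and 4.22 CPM with desIgf1, against 1.29, 1.22 and 2.81 CPM in controls. Control 3 was the high control and still lay below each desIgf1 library (log2 1.14 ± 0.37 SE, edgeR adjusted p = 0.514, with the block 0.166). Trim30a was at 62.1, 66.0 and 56.8 CPM with desIgf1, against 54.0, 44.3 and 53.4 CPM in controls (log2 0.28 ± 0.12 SE, edgeR adjusted p = 0.608), and it has close copies in its cluster. Mx1 was at 10.7, 11.9 and 15.6 CPM with desIgf1, against 4.34, 5.44 and 13.4 CPM in controls. It was higher within each number and overlapped across them, with control 3 above 2 desIgf1 libraries (log2 0.73 ± 0.42 SE, and 1.38 without control 3). The Mx1 transcript of C57BL/6 mice does not encode a working protein.

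For Samhd1 and Bst2 the groups overlapped. Samhd1 was at 493, 651 and 375 CPM with desIgf1, against 694, 596 and 542 CPM in controls (log2 -0.27 ± 0.20 SE, edgeR adjusted p = 0.706). Its lowest library was desIgf1 3, and number 2 went against the other numbers. Bst2, the gene of tetherin, was at 25.6 to 28.4 CPM with desIgf1 and 23.1 to 29.6 CPM in controls (log2 0.03 ± 0.13 SE). Rsad2, the gene of viperin, was at 0.275, 0.119 and 0.372 CPM with desIgf1, against 0.132, 0.0938 and 0 CPM in controls. Control 3 had 0 counts, which at its depth allows up to 0.0859 CPM (3 counts, counting error only), and Rsad2 was too low to test.

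In the PARP9 group each gene was higher with desIgf1 within each replicate number, with groups that overlapped. Parp9, which acts with the ligase DTX3L, was at 120, 117 and 91.0 CPM with desIgf1, against 107, 95.8 and 69.5 CPM in controls (log2 0.27 ± 0.18 SE, edgeR adjusted p = 0.691). Dtx3l was at 136, 137 and 96.4 CPM with desIgf1, against 135, 108 and 79.1 CPM in controls, and Parp14 at 183, 159 and 121 CPM with desIgf1, against 181, 122 and 105 CPM in controls. The number 3 library was the lowest of its group for all 3 genes. Parp9 and Dtx3l overlap head to head on chromosome 16, by 682 bases. Ifi203, of the PYHIN family with many close copies, was at 9.56, 4.54 and 17.6 CPM with desIgf1, against 6.10, 2.77 and 16.3 CPM in controls. Its level differed more between numbers than between groups. Xaf1, a gene of the XIAP-associated factor, was at 10.2, 10.1 and 12.6 CPM with desIgf1, against 9.10, 6.87 and 9.77 CPM in controls, with no overlap (log2 0.35 ± 0.20 SE, edgeR adjusted p = 0.645). Sp100, of nuclear bodies, was at 230 to 256 CPM with desIgf1 and 192 to 289 CPM in controls, and Ifi35 at 31.2 to 35.6 CPM with desIgf1 and 33.8 to 38.8 CPM in controls.

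The Schlafen genes form a cluster on chromosome 11, and the long genes Slfn5 and Slfn8 were higher with desIgf1 while the short genes Slfn1 and Slfn2 were lower, without passing the test. Slfn8 (83002158 to 83020810, minus strand) had 19.5, 21.9 and 21.5 CPM with desIgf1, against 14.6, 11.8 and 14.9 CPM in controls. The groups were well apart in every number (log2 0.60 ± 0.14 SE, edgeR adjusted p = 0.382, with the block 0.166). Slfn5 (82951349 to 82964840, plus strand) had 35.0, 59.7 and 35.8 CPM with desIgf1, against 27.8, 26.5 and 32.0 CPM in controls. Library 2 was far above the other desIgf1 libraries, and the log2 fold change of 0.60 ± 0.22 (edgeR adjusted p = 0.560) was 0.30 without it. Slfn1, which slows the growth of thymocytes when overexpressed, was at 90.8, 94.4 and 103 CPM with desIgf1, against 118, 85.7 and 145 CPM in controls (log2 -0.28 ± 0.18 SE, edgeR adjusted p = 0.680). Slfn2 was at 375, 329 and 407 CPM with desIgf1, against 414, 330 and 435 CPM in controls, lower within each number by little (log2 -0.09 ± 0.14 SE). Slfn5 and Slfn8 lie 37.3 kb apart, Slfn8 and Slfn2 44.3 kb, and Slfn2 and Slfn1 46.2 kb. Slfn8 and its neighbour Slfn9 are close copies, so the count of Slfn8 is uncertain, and no test of the difference between the long and short genes was made.

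Of the 4 antigen-processing genes, the 3 that adjoin on chromosome 17 were each higher in every desIgf1 library than in any control, by 1.22-fold at most. Psmb9, an immunoproteasome subunit, was at 85.6, 91.2 and 88.0 CPM with desIgf1, against 68.8, 72.4 and 75.4 CPM in controls (log2 0.29 ± 0.09 SE, edgeR adjusted p = 0.505). Tap1, a subunit of the peptide transporter, was at 247, 244 and 229 CPM with desIgf1, against 205, 199 and 206 CPM in controls (log2 0.24 ± 0.08 SE, edgeR adjusted p = 0.527). The libraries of each group were close together for both genes, with a clear gap between the groups. Psmb8 was at 373, 407 and 407 CPM with desIgf1, against 308, 363 and 369 CPM in controls, where desIgf1 library 1 and control 3 nearly touched (log2 0.19 ± 0.11 SE, edgeR adjusted p = 0.645). Psmb9 and Tap1 run head to head and overlap by 212 bases, and Psmb8 begins 495 bases after Tap1. Psmb10, the immunoproteasome subunit encoded on chromosome 8, was at 72.5, 63.5 and 73.5 CPM with desIgf1, against 82.7, 68.5 and 76.6 CPM in controls. It was lower within each number, with overlapping groups (log2 -0.12 ± 0.11 SE).

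**Figure D4:**
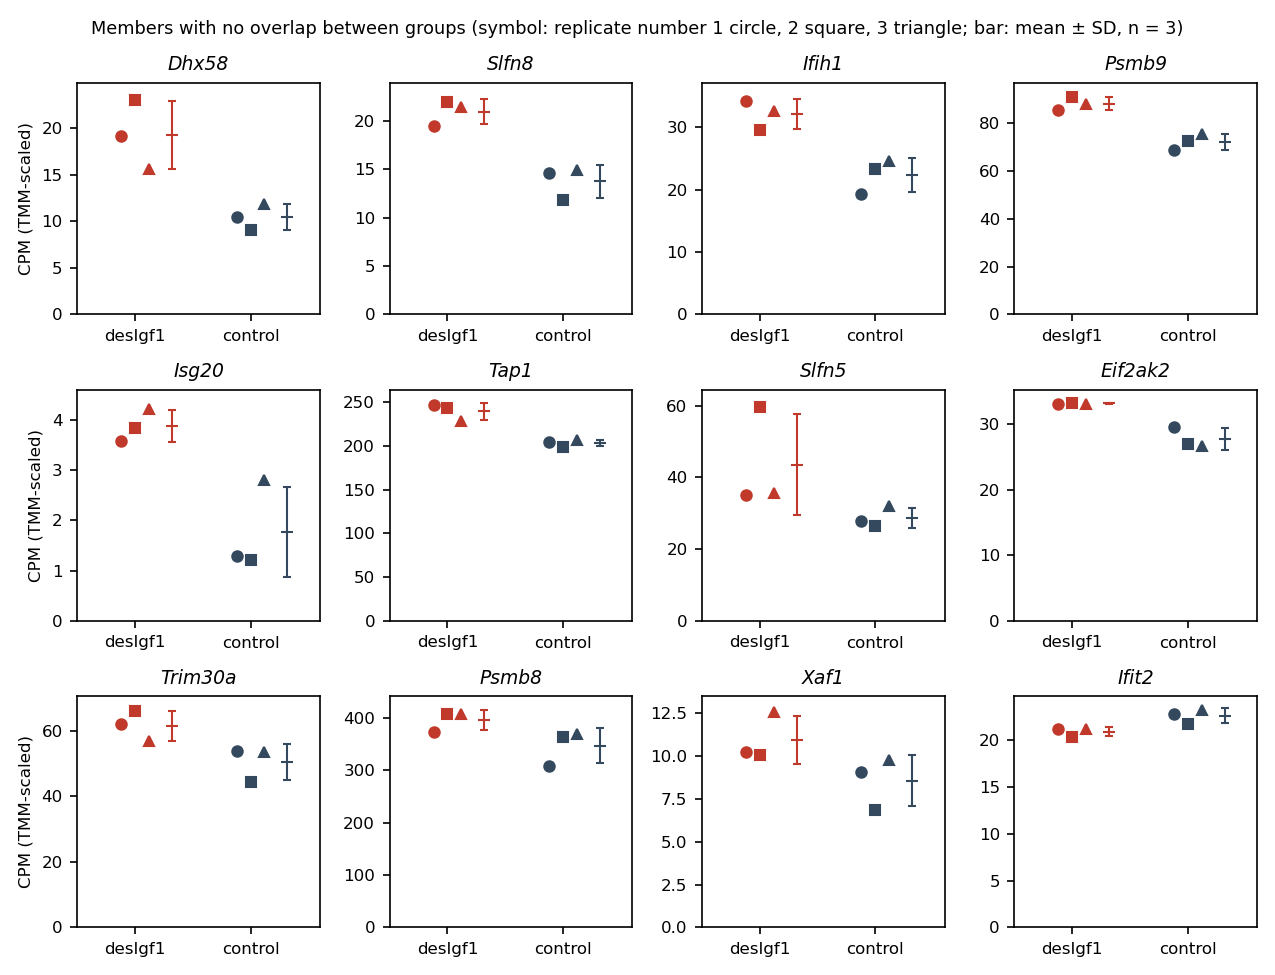
TMM-scaled CPM (vertical axes, from 0) of the 12 tested members whose groups did not overlap, with each library as a point and mean ± SD bars (n = 3) beside them, desIgf1 in red to the left of control in dark blue. In 11 panels the desIgf1 libraries lie above the controls, and in the last, Ifit2, they lie just below.

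Exons of 18 members overlap those of another gene, over at most 16.8% of their length (Ifi35). No source used here states how counting treated strand, and reads in those stretches may belong to either gene.

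Across the 6 libraries the members varied with the replicate number as well as with desIgf1. Of the sum of squares of a member's log2 CPM, the group took a median of 30.5%, the number 41.6% and the rest 14.8%, against 17.8%, 44.9% and 23.1% over all tested genes. There are 2 groups and 3 numbers, so the share of the group and that of the number cannot be compared directly. Each is read against its value over all tested genes. The highest library was desIgf1 1, 2 or 3 for 6, 9 and 6 members, and control 1, 2 or 3 for 8, 3 and 4. The median deviation of the 36 from their own mean was 0.17, 0.14 and 0.07 on the log2 scale in desIgf1 libraries 1 to 3 and 0.06, -0.20 and -0.10 in controls 1 to 3. By this median each desIgf1 library lay above each control, and control 1 came nearest. In the fit with the block and without both number 3 libraries, 5 members passed edgeR's test and all were higher, namely Dhx58, Isg20, Mx1, Slfn5 and Slfn8, where 7.64% of all genes passed in either direction. Without both number 2 libraries 4 passed, Ifih1 and Oas3 higher and Samhd1 and Slfn1 lower, against 4.42% of all genes. Without both number 1 libraries 0 members passed, against 0.513% of all genes. The shares of all genes in these fits are for either direction. Such fits leave fewer residual degrees of freedom than the 2 of the fit with the full block, so their calls are weakly founded.

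**Figure D5:**
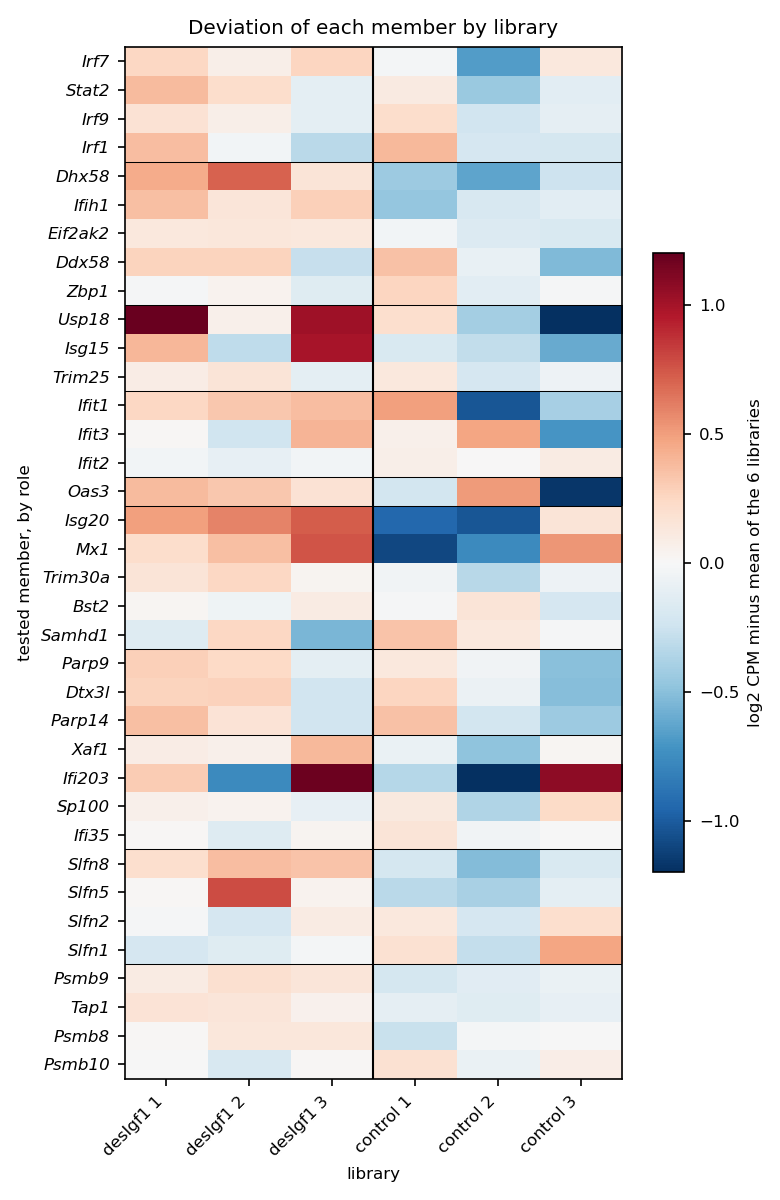
Deviation of each of the 36 tested members (rows, by role) from its own mean over the 6 libraries, in log2 CPM, with desIgf1 libraries left of the vertical line and controls right. Colours saturate at the ends of the scale, and Dhx58, Ifih1, Eif2ak2, Slfn8 and Psmb9 are among the rows with warmer colours in all desIgf1 libraries than in any control.

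Members with a response element match were set beside those without. The 13 tested members with a match had a median log2 fold change of 0.34 (0.03 to 0.83), 7 were higher in all 3 numbers and 5 had desIgf1 libraries all above the controls. The 17 with a window and no match had a median of 0.08 (-0.28 to 1.14), with 7 higher in all numbers and 5 separated. The 6 without a RefSeq window, Dhx58 and Usp18 among them, had a median of 0.50 (-0.08 to 1.40), with 5 higher in all numbers and 1 separated. Over all tested genes, 20.9% were higher in all 3 numbers and 7.31% had desIgf1 libraries all above the controls. Genes outside the members were not split by a match. The values are descriptions of lists, and a link between a match and the difference was not tested.

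A further list of 86 interferon-inducible genes outside the members was read from the same fit. Of its 75 tested genes, 0 passed edgeR's test with or without the block, and the median log2 fold change was 0.19. At an unadjusted p under 0.05, 8 were higher and 3 lower (4.75% and 3.42% of all genes), and with the block 20 higher and 4 lower (9.02% and 5.29%). Ly6e, a surface protein gene, was at 1203, 1236 and 1245 CPM with desIgf1, against 831, 962 and 766 CPM in controls (log2 0.53 ± 0.11 SE, edgeR adjusted p = 0.316). DESeq2 called it (adjusted p = 0.0167). B2m, the light chain of MHC class I, was at 658, 732 and 629 CPM with desIgf1, against 541, 569 and 478 CPM in controls, and Herc6, the mouse ligase for ISG15, at 29.1 to 31.5 CPM with desIgf1 and 21.2 to 25.9 CPM in controls. For all 3 the groups did not overlap, but they were named for the smallest unadjusted p on the higher side. Of the 75 tested genes, 8 had all desIgf1 libraries above the controls and 3 had all below. The shares of all genes were 7.31% and 6.18%. On the lower side, Gm4951 was at 0.125, 0.0475 and 0.0413 CPM with desIgf1, against 0.833, 0.493 and 0.458 CPM in controls (log2 -3.04 ± 0.55 SE, edgeR adjusted p = 0.261, with the block 0.0706, DESeq2 adjusted p = 0.0127; -3.67 without desIgf1 library 1), and was the other gene of the list that DESeq2 called. Gm4951 passed the filter on low counts through the controls alone, as its desIgf1 libraries all lay under the cutoff of 0.234 CPM. Its values are therefore a description and not support for a difference. The other lower genes without the block were Ifi208 (0.451 to 0.601 CPM with desIgf1 and 0.915 to 2.59 CPM in controls) and Slfn3 (8.04 to 8.86 CPM with desIgf1 and 10.6 to 11.3 CPM in controls) of the Schlafen cluster.

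Markers of other cells were low, and those of the sorted cells were high. T cell markers (5 of 5 tested) summed to 4052 to 4882 CPM in desIgf1 libraries and 4032 to 4395 CPM in controls. Th17 markers, Il17a among them, summed to 1421 to 1772 CPM with desIgf1 and 1035 to 1220 CPM in controls, without overlap (two-sided exact permutation p = 0.1, the smallest that 3 against 3 libraries allow, and 0.675 adjusted over 9 lists). Dendritic cell markers (4 of 6 tested, Xcr1 at 0) summed to 6.65 to 38.6 CPM with desIgf1 and 2.19 to 15.8 CPM in controls, most of it Ccl22. Ccl22, a chemokine gene named here after its values were seen, was at 5.81, 5.63 and 35.2 CPM with desIgf1, against 1.45, 2.09 and 13.5 CPM in controls. It was higher within each number, and passed edgeR's test with the block (log2 1.58 ± 0.18 SE, adjusted p = 0.0496) and not without it (log2 1.46 ± 1.06 SE, adjusted p = 0.702). Macrophage and monocyte markers (5 of 6 tested) summed to 9.76 to 14.8 CPM with desIgf1 and 4.78 to 12.3 CPM in controls. Of the plasmacytoid dendritic cell markers (3 of 6 tested), Siglech and Ccr9 were at 0 in all libraries, and the sum of 60.0 to 67.2 CPM with desIgf1 and 63.8 to 70.5 CPM in controls was mostly Bst2, itself a member, and Tcf4. B cell markers (2 of 5 tested) summed to 0.997 to 1.51 CPM with desIgf1 and 1.08 to 3.32 CPM in controls, and neutrophil markers (0 of 5 tested) to 0.0413 to 0.261 CPM with desIgf1 and 0 to 0.716 CPM in controls. NK cell markers (3 of 5 tested, Ncr1 and Klra8 at 0) summed to 3.09 to 7.30 CPM with desIgf1 and 2.72 to 5.64 CPM in controls, and CD8 T cell markers (1 of 2 tested) to 4.98 to 10.98 CPM with desIgf1 and 3.22 to 7.85 CPM in controls. The CD8 T cell sum was nearly all Cd8b1, with Cd8a at 0 to 0.103 CPM with desIgf1 and 0 to 0.0286 CPM in controls. Within replicate numbers, the T cell, Th17, dendritic, macrophage, NK and CD8 T cell sums were higher with desIgf1 in all 3 numbers, the plasmacytoid and B cell sums were lower in all 3, and the neutrophil sum was lower in 2. The part of any of these in the members' levels was not tested.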

How the data were processed

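RNA was sequenced from 3 desIgf1 and 3 control libraries. The authors deposited whole-number counts per gene, not normalized. Per the submitters' processing notes they worked on GRCm38 (mm10) with HTSeq 0.7.2, STAR 2.5.3, Trim Galore 0.4.5, SAMtools 0.1.18, R 3.4.3 and DESeq2 1.18.1. How strand was treated in counting, and which annotation release was used, is not given in the sources used here, although the names of the deposited files carry the word reverse. Reads placed at several sites (46.4 to 48.7% of entries) went uncounted, so genes with near-identical copies read low. The 5 summary lines of each file stayed out of library sizes and tests. At these depths 3 counts correspond to 0.0620 to 0.0859 CPM.

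GENCODE M21 (GRCm38) gave symbols, coordinates and exon lengths for 37693 of 39179 identifiers. Counts were tested over all genes by edgeR 4.0.16 (R 4.3.3) with the robust quasi-likelihood method, TMM scaling, the filterByExpr filter (minimum count 10) and the group alone in the model. The Benjamini-Hochberg adjustment ran over all 13846 tested genes, and 0.05 was the threshold. Each SE was computed as the absolute log2 fold change over the root of its F value. CPM use TMM factors, with a prior count of 2 on the log2 scale. DESeq2 1.42.0, limma 3.58.1 (voom), other scalings, no filter, a fit that was not robust, a block for the replicate number, and each library left out were alternatives. Marker sums were compared with two-sided exact permutation tests (Python 3.11.15, SciPy 1.17.1). The scripts were tested on simulated data.

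Same-numbered libraries deviated together from their group means (correlation across genes 0.593, 0.318 and 0.555 for numbers 1, 2 and 3), so the numbers were taken to pair the libraries. This rests on the data, since no label says so. The fit with the block has 2 residual degrees of freedom, against 4 without it, and its values are printed where they change a call or move a count of calls.

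The members, lists and rules were chosen with earlier results of these data known. Genes were named by a rule that took members past the threshold, up to 8 tested members in each direction with the smallest unadjusted p, a fixed set of classical members, and of the other lists fixed genes and up to 3 per direction by p. Other members are given to complete their role groups. Promoter windows came from RefSeq (GRCm38.p6), and members without one (Dhx58, Mx1, Oas2, Parp14, Parp9, Rtp4, Usp18 and Zbp1) were not searched. Ifna6, Ifna7, Ifna11, Ifnab and Pyhin1 of the lists were not analysed here, and 1 gene of the pathway list that the rule names is not reported here.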

Additional observations from a re-analysis of the deposited data

How the results depend on the processing

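Counts of calls depended on the test. In all, 0 genes passed with either other scaling, without robust estimation, with voom and with any 1 library left out (0 to 0), whereas 16 passed with no filter, 208 with DESeq2 and 44 with the replicate block. With the block and without both libraries of number 1, 2 or 3, counts were 72, 620 and 1069 over all genes, 4 and 5 members without numbers 2 and 3, 3 and 5 pathway genes without numbers 2 and 3, and 1, 12 and 19 other inducible genes. In these fits 0.513%, 4.42% and 7.64% of all genes passed, in either direction. With all libraries, 36 members, 36 pathway genes and 75 other inducible genes were tested. Fits without a number leave fewer residual degrees of freedom than the full block, so their calls are weakly founded. DESeq2 called 2 members, 2 pathway genes and 2 other inducible genes. With the full replicate block 0 members, pathway genes or other inducible genes passed, and of the genes named the block changed the call of Ccl22 only.

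The median of the tested members was 0.17 to 0.32 with 1 library left out, 0.21 to 0.31 with the block and 1 number left out, and 0.24 to 0.27 in the other alternatives. The separated members numbered 11 to 14 (higher; 9.06 to 17.4% of all genes) and 1 to 5 (lower; 8.28 to 16.6%) with 1 library left out, with 2 lower without desIgf1 2 (8.28%) and 5 without control 2 (12.8%), and 10 higher by library size alone (7.48%). Of 43 named tested genes 35 kept their sign in all alternatives. The 8 others had small differences. With 1 library left out their lowest and highest log2 values were -0.21 and 0.41 (Ifit3), -0.034 and 0.13 (Ifnar2), -0.20 and 0.24 (Irf1), -0.011 and 0.22 (Irf9), -0.13 and 0.75 (Socs1), -0.17 and 0.10 (Sp100), -0.095 and 0.14 (Tyk2) and -0.16 and 0.032 (Zbp1). With voom Sp100 and Tyk2 were at 0.00463 and 0.00257. With the block Sp100 was at 0.00378. With the block and without number 1, Sp100 and Zbp1 were at 0.036 and 0.018; without number 2, Ifnar2, Irf1 and Irf9 at -0.057, -0.064 and -0.020; without number 3, Ifit3, Sp100 and Tyk2 at -0.44, 0.17 and 0.088. The cause was not tested.

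With 1 library left out, the desIgf1 minus control difference of marker sums ran over -23.7 to 391 CPM (T cell, below 0 without desIgf1 2), -1.08 to 0.0461 (B cell, above 0 without control 3), -0.290 to 0.0685 (neutrophil, above 0 without control 3) and -0.495 to 1.68 (NK cell, below 0 without desIgf1 3). For the others it was 396 to 572 (Th17), 1.82 to 4.92 (CD8 T cell), 0.182 to 16.1 (dendritic), 0.825 to 4.71 (macrophage) and -5.09 to -0.814 (plasmacytoid). Depth limits the 7 untested members, at 0 to 21 counts.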
